A study of Mus musculus with 8 samples.

Results

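The Notch pathway was followed through 10 genes: the receptors Notch1, Notch2 and Notch3, the nuclear partners Rbpj, Maml1 and Maml2, the target genes Hes1, Dtx1 and Nrarp, and the inhibitor Numb. They were taken by gene symbol from the 27179 rows of a gene count table, and all 10 had a row. The table came from RNA sequencing of 8 libraries of CCR6+ group 3 innate lymphoid cells (ILC3s), lymphocytes that secrete interleukin 22, sorted from large intestines of C57BL/6 mice at steady state, each mouse giving 1 library. In 4 Zbtb46 KO libraries (replicates 5 to 8) the mice carried floxed Zbtb46 alleles (Zbtb46f/f) and a Cre recombinase that deletes them. In 4 WT libraries (replicates 1 to 4) the mice were Zbtb46f/f: both groups carried the floxed alleles, and no Cre is named for WT. The sort kept CD127+ CD90-high cells without surface markers of other lymphocytes or of myeloid cells. No source used here gives the age of the mice.

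Notch receptors are cell surface proteins that are cut when a Delta-like or Jagged ligand on a neighbouring cell binds them. The cut frees the intracellular part of the receptor, which enters the nucleus, binds the DNA-binding protein RBPJ and recruits a Mastermind-like (MAML) coactivator to switch on target genes such as Hes1, Nrarp and Dtx1. Without a signal RBPJ sits with corepressors and keeps the same genes low. In mouse intestine Notch is known to favour the CCR6-negative ILC3s that carry NKp46 (encoded by Ncr1), while CCR6+ ILC3s resemble lymphoid tissue inducer cells and depend on it less. Epithelial progenitors of the crypt and vascular cells also use the pathway.

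Library totals ran from 25328231 to 33760743 counts, and levels are CPM, the count scaled to a common library size after TMM normalization. Genes with a count numbered 14410 in WT replicate 2 and 10668 to 11967 in the other libraries. The limit that a count of 0 allows, 3 counts of the total, lay between 0.0889 and 0.118 CPM, which covers counting error only. Zbtb46 had 4.82, 0.532, 3.19 and 0.125 CPM in KO replicates 5 to 8, against 8.02, 48.8, 88.9 and 26.6 CPM in WT replicates 1 to 4. Every KO library lay below every WT library in Zbtb46, as in 2.1% of all tested genes, but its adjusted p was 0.885 in edgeR. All 10 CCR6+ ILC3 markers exceeded 3 counts in every library and summed to 26400 to 39500 CPM. Some markers of other cells also exceeded 3 counts in every library, among them Trbc1, Trbc2 and Lat of T cells and Pecam1 of endothelium. So did Xcr1 and Ccr7 of dendritic cells and Gata3, Il5 and Areg of group 2 innate lymphoid cells (ILC2s). The 6 ILC2 markers summed to 286 to 478 CPM in KO and 64.7 to 287 CPM in WT, led by Areg. The 7 dendritic markers summed to 429 to 1050 CPM in KO and 430 to 718 CPM in WT, led by Ccr7. The 7 B and plasma cell markers summed to 21.3 to 90.0 CPM in KO and 8.92 to 136 CPM in WT. The 8 T cell markers summed to 87.6 to 348 CPM in KO and 97.0 to 283 CPM in WT libraries. The 5 endothelial markers summed to 13.9 to 95.3 CPM in KO, highest in replicate 7, and 8.77 to 37.1 CPM in WT. KO replicate 6 lay at 151 on the first principal component, with the other 7 libraries between -47.1 and -5.55. WT replicate 1 lay at 139 on the second, with the others between -39.2 and 22.8. In WT replicate 2 the 8 epithelial markers summed to 1290 CPM, against at most 28.6 CPM in any other library, although Cdh1 and Vil1 were at no more than 3 counts there. The 9 markers of NCR+ ILC3s, ILC1s and NK cells summed to 177 to 617 CPM in KO and 49.3 to 247 CPM in WT libraries, with Eomes and Prf1 at no more than 3 counts in all 8. Ncr1 alone had 148 to 447 CPM in KO and 0.0391 to 198 CPM in WT libraries. Klrb1c, the only one above 3 counts in every library, had 13.7 to 46.2 CPM in KO and 24.4 to 48.2 CPM in WT. Gzma and Ifng had 59.4 and 17.1 CPM in KO replicate 5 and at most 0.228 CPM in any other library. Sums of 8 markers of macrophages and neutrophils were 335, 11.2, 738 and 5.26 CPM in KO replicates 5 to 8, led by S100a8 and S100a9 in replicates 5 and 7, against 2.85 to 43.9 CPM in WT libraries. The 6 stromal markers summed to 24.2 to 462 CPM in KO and to 42.9 to 1170 CPM in WT libraries, highest in WT replicate 1. The part of these cells in the levels of Notch pathway genes was not tested. In sorted bulk RNA, fewer cells of a type and less RNA per cell cannot be told apart.

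Of the receptors, Notch2 was the most abundant, Notch1 was low and Notch3 was barely detected, and none of them differed between genotypes beyond the spread of the libraries. Notch2 (Entrez ID 18129, chromosome 3, 98013538 to 98150367 in GRCm38) had 12.7, 151, 66.95 and 42.9 CPM in KO replicates 5 to 8, against 36.2, 72.4, 38.95 and 111 CPM in WT replicates 1 to 4. Both the lowest and the highest Notch2 value were in KO libraries, and the WT values lay between them. Means were 68.4 ± 59.5 CPM in KO and 64.7 ± 35.2 CPM in WT (SD, n = 4 each), with a fitted log2 fold of KO over WT of 0.08 (standard error 0.722). The sign of that fold turned without KO replicate 6 (-0.67), without WT replicate 1 (-0.12) and without WT replicate 3 (-0.08).

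Notch1 (Entrez ID 18128, chromosome 2, 26457902 to 26503822), the receptor required for T cell commitment, had 8.88, 1.44, 11.01 and 8.51 CPM in KO replicates 5 to 8, against 1.21, 1.82, 12.4 and 9.55 CPM in WT replicates 1 to 4. Its values fell into a low level in KO replicate 6 and WT replicates 1 and 2 and a higher level in the other 5 libraries, with both genotypes at each level. The fitted log2 fold of Notch1 was 0.25 (standard error 1.34), and its sign turned without WT replicate 1 (-0.10) or WT replicate 2 (-0.06). Notch3 (Entrez ID 18131, chromosome 17, 32120820 to 32166896), a receptor of vascular mural cells and of T cell precursors, had 0, 0, 1 and 1 counts in KO replicates 5 to 8, against 0, 5, 0 and 1 counts in WT replicates 1 to 4. WT replicate 2 was the only library of the 8 with more than 3 counts of Notch3. These counts were too few to show a difference in Notch3.

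**Figure D1:**
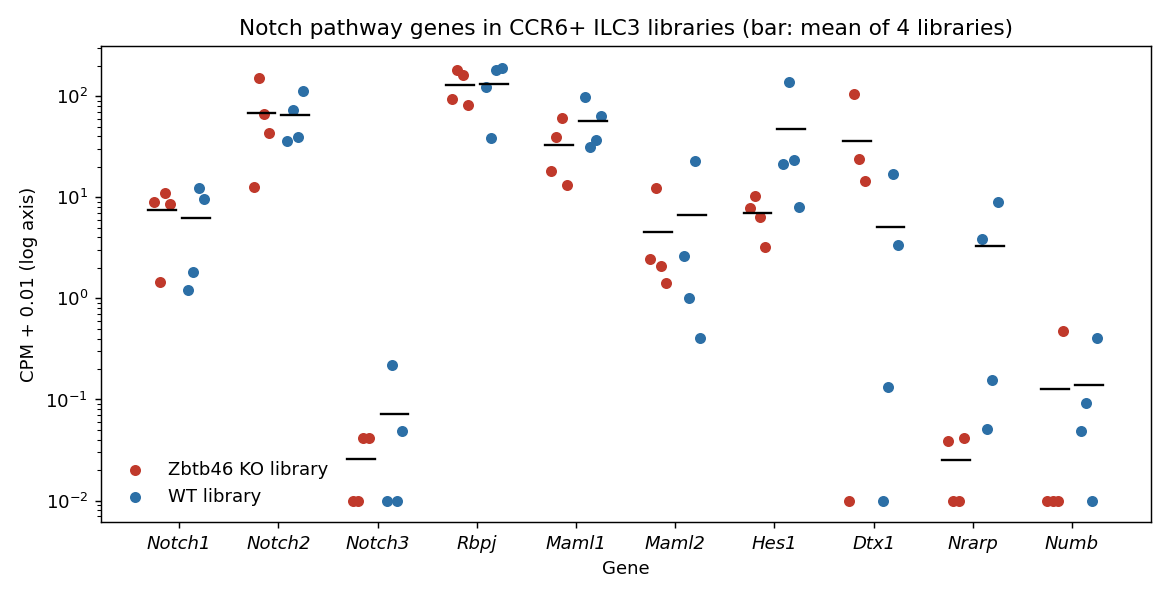
Level of the 10 Notch pathway genes in each library, in CPM plus 0.01 on a log axis, with KO libraries (red) left of WT libraries (blue) and a bar at the mean of 4 libraries. Rbpj and Notch2 lie between 12.7 and 191 CPM in both genotypes, Hes1 is at 3.22 to 10.3 CPM in KO and 8.06 to 137 CPM in WT libraries, and Notch3 and Numb stay under 0.5 CPM.

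Among the nuclear partners, Rbpj had close means in both genotypes, and differences in the coactivator genes Maml1 and Maml2 were within the spread of the libraries. Rbpj (Entrez ID 19664, chromosome 5, 53555779 to 53657445), which encodes the DNA-binding protein that Notch receptors act through, had 94.2, 181, 160 and 81.7 CPM in KO replicates 5 to 8, against 122, 38.1, 179 and 191 CPM in WT replicates 1 to 4. The low value of 38.1 CPM was in WT replicate 2, the library with the epithelial markers, and the remaining 7 libraries lay within 81.7 to 191 CPM. Means were 129 ± 48.7 CPM in KO and 133 ± 69.96 CPM in WT (SD, n = 4 each). The fitted log2 fold of Rbpj was -0.04, and its standard error of 0.498 was the smallest of the 7 members that could be tested. The sign turned with scaling by library totals alone (0.0582) and when KO replicate 5 or 8 or WT replicate 3 or 4 was left out (up to 0.19).

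The RBPJ protein binds DNA through a core written TGGGAA on either strand (TTCCCA when read from the opposite strand). RefSeq promoter windows of GRCm38.p6, each 300 bases long from 250 bases before a transcript start to 50 after it, were matched for 9 of the 10 genes, all but Hes1, as 13 windows in all. The core was present in 3 of the 13 windows, from 2 genes, Rbpj and Maml2. That share is near the 25.6% of all 32851 windows of this length that hold it. The Rbpj and Maml2 windows with matches are shown because they hold the letters that the pathway's own DNA-binding protein reads, and the Nrarp window because Nrarp had the fewest reads in KO libraries of the targets Hes1, Dtx1 and Nrarp. Capitals mark the core. The windows lie at chr5:53590096-53590395 (plus strand) for Rbpj, chr9:13662210-13662509 (plus strand) for the downstream start of Maml2, and chr2:25180508-25180807 (plus strand) for Nrarp.
Rbpj: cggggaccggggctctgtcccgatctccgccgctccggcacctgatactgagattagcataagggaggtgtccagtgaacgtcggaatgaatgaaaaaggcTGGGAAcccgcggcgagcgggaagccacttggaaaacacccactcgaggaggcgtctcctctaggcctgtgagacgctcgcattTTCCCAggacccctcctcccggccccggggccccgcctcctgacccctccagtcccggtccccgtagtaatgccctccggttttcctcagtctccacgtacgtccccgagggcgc
Maml2: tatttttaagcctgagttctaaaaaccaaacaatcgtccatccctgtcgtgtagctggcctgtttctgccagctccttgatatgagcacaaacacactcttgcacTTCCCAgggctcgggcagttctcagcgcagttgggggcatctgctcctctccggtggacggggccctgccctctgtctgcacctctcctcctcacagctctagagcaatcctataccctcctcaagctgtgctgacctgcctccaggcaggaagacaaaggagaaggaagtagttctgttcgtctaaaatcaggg
Nrarp: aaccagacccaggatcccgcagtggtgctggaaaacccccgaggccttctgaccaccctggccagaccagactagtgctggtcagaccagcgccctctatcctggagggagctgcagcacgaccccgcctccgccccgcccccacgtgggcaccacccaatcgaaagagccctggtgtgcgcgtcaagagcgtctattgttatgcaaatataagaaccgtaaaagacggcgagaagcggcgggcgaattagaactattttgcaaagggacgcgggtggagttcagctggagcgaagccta
In Rbpj the matches began 149 bases before the start on the forward strand and 65 bases before it on the reverse strand, and the reverse-strand match also lies in a second Rbpj window that overlaps this one. In Maml2 the match began 145 bases before the start on the reverse strand. A match describes letters and not binding, and the absence of the core from the Nrarp window refers to these 300 bases only.

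Maml1 (Entrez ID 103806, chromosome 11, 50255634 to 50293131) had 18.0, 39.7, 60.7 and 13.1 CPM in KO replicates 5 to 8, against 98.1, 31.15, 36.6 and 62.9 CPM in WT replicates 1 to 4. The 2 lowest libraries were KO and the 2 highest were WT, but the ranges overlapped between 31.15 and 60.7 CPM. Means were 32.9 ± 21.9 CPM in KO and 57.2 ± 30.6 CPM in WT (SD, n = 4 each), and the fitted log2 fold was -0.80 (standard error 0.707). Maml2 (Entrez ID 270118, chromosome 9, 13296561 to 13709533) had 2.43, 12.3, 2.06 and 1.41 CPM in KO replicates 5 to 8, against 2.62, 0.993, 22.8 and 0.393 CPM in WT replicates 1 to 4. In each genotype a single library, KO replicate 6 and WT replicate 3, stood well above the other 3. The fitted log2 fold of Maml2 was -0.56 (standard error 1.57), and it turned to 1.76 without WT replicate 3. The span of Maml2 overlaps the noncoding gene Phxr4, and no source used here says whether reads were counted by strand.

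Of the 3 targets, Hes1 and Nrarp had lower means in KO than in WT libraries and Dtx1 a higher one. Neither Hes1 nor Dtx1 passed edgeR's test over all genes, and both overlapped between genotypes. Nrarp had reads in too few libraries to enter that test. Hes1 (Entrez ID 15205, chromosome 16, 30065357 to 30067796), a transcriptional repressor and the classic direct Notch target, had 7.88, 10.3, 6.35 and 3.22 CPM in KO replicates 5 to 8, against 21.1, 137, 23.1 and 8.06 CPM in WT replicates 1 to 4. The 3 highest libraries were WT, and WT replicate 4 fell inside the KO range. Means were 6.94 ± 2.97 CPM in KO and 47.3 ± 60.2 CPM in WT (SD, n = 4 each), with a fitted log2 fold of -2.77 (standard error 1.09). In edgeR's quasi-likelihood test Hes1 had an unadjusted p of 0.0294, the smallest of the members, and an adjusted p of 0.9999 over all 8878 tested genes. An exact two-sided permutation test of its log2(CPM + 1) gave a difference of means of -1.93 and p = 0.0571.

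The high Hes1 value of 137 CPM came from WT replicate 2, the library in which the epithelial genes Muc2, Lgals4 and Epcam reached 724, 388 and 137 CPM. Without that library the fitted log2 fold of Hes1 was -1.33, with an unadjusted p of 0.327 and an adjusted p of 0.9999 in edgeR, and the difference of mean log2 levels was -1.18 (exact permutation p = 0.114). The unadjusted p of Hes1 in edgeR also exceeded 0.05 when KO replicate 5, 7 or 8 was left out, at 0.0502, 0.059 and 0.0656, with log2 folds between -2.83 and -2.53. In the other WT libraries, at 8.06 to 23.1 CPM of Hes1, epithelial markers summed to 1.48 to 14.9 CPM, and in KO libraries to 0.751 to 28.6 CPM. The part of the epithelial signal in the Hes1 difference was not tested beyond leaving out that library.

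**Figure D2:**
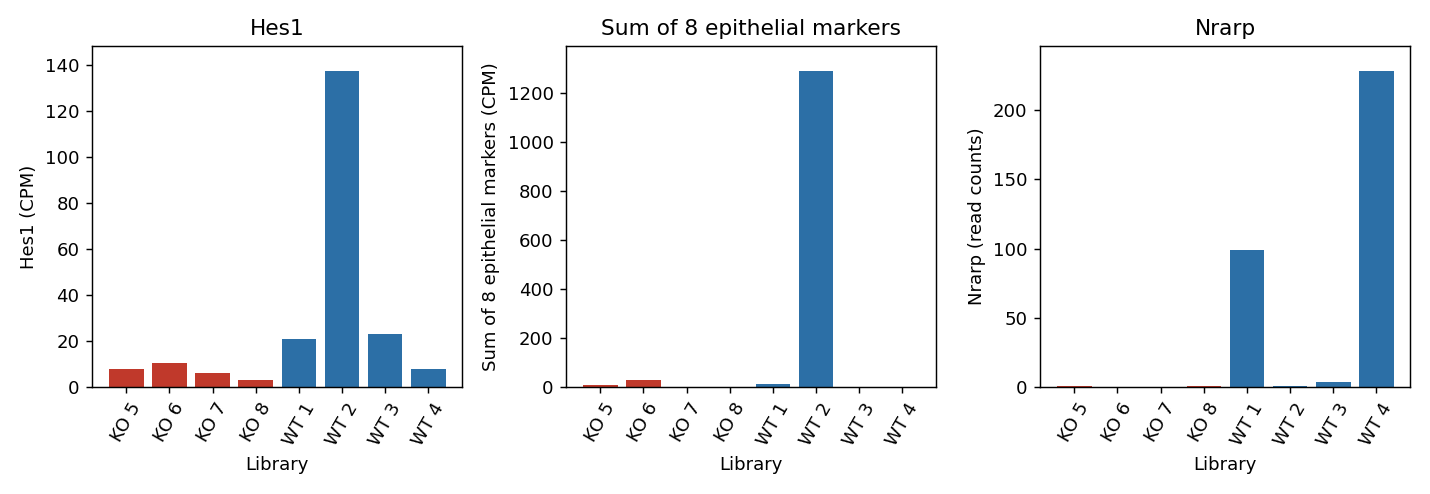
Hes1 in CPM, the summed CPM of 8 epithelial markers, and Nrarp in read counts for each library, with KO libraries in red at the left and WT libraries in blue at the right; axes start at 0. WT replicate 2 has both the highest Hes1 value (137 CPM) and the highest epithelial sum (1290 CPM), and nearly all Nrarp reads are in WT replicates 1 and 4.

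Nrarp (Entrez ID 67122, chromosome 2, 25180758 to 25183339), whose product binds the nuclear Notch complex and dampens it, had 1, 0, 0 and 1 counts in KO replicates 5 to 8, against 99, 1, 4 and 228 counts in WT replicates 1 to 4. The KO libraries held 2 counts together and the WT libraries 332, and WT replicates 1 and 4 supplied 98.5% of the WT counts. WT replicate 1 was also the library apart on the second principal component and had the highest stromal marker sum, 1170 CPM, against 85.8 CPM in WT replicate 4, which had more Nrarp reads. The part of stromal RNA in the Nrarp counts was not tested. The scaled ratio of the summed counts, KO over WT, was 0.0053, with a 95% exact counting interval from 0.000639 to 0.0193 that covers counting error only and not the difference between mice. All 4 KO libraries lay below all 4 WT ones, but WT replicate 2 and the nearest KO library had 1 count each, so the ranks there rest on the scaling of a single read. Nrarp was removed by the expression filter, so edgeR gave it no test. The exact two-sided permutation test of log2(CPM + 1) gave p = 0.0286, the smallest that 4 libraries against 4 can give. DESeq2, run without that filter, gave Nrarp an adjusted p of 0.00514, while edgeR without the filter gave 0.431.

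Dtx1 (Entrez ID 14357, chromosome 5, 120680203 to 120711867), a ubiquitin ligase of the Deltex family and a Notch target in lymphocytes, had 0, 105, 23.8 and 14.5 CPM in KO replicates 5 to 8, against 0, 0.124, 16.9 and 3.34 CPM in WT replicates 1 to 4. It had no more than 3 counts in libraries of both genotypes, KO replicate 5 and WT replicates 1 and 2, and the highest value was in KO replicate 6. Means were 35.8 ± 47.1 CPM in KO and 5.08 ± 8.01 CPM in WT (SD, n = 4 each), with a fitted log2 fold of 2.81 (standard error 2.28). The fold was 1.31 without KO replicate 6 and 4.97 without WT replicate 3, in each case with an adjusted p near 1 in edgeR.

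Numb (Entrez ID 18222, chromosome 12, 83794034 to 83921942) encodes an endocytic adaptor that removes Notch receptors from signalling. It had 0, 0, 0 and 15 counts in KO replicates 5 to 8, against 1, 2, 0 and 10 counts in WT replicates 1 to 4. Only KO replicate 8 and WT replicate 4 exceeded 3 counts, so these counts could not show a difference in Numb. The span of Numb overlaps the protein-coding gene Papln, which had 3 counts in all 8 libraries together.

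Levels of different genes were compared per kilobase of annotated exon, since longer transcripts collect more reads from full-length cDNA. The length was the union of all annotated exons of a gene, 12750 bases for Rbpj and 2037 bases for Hes1. It can exceed the length of any single transcript, and the order of genes depends on it. By the mean over all 8 libraries Hes1 came first at 13.3 CPM per kb, followed by Rbpj at 10.3, Maml1 at 8.15, Notch2 at 6.18, Dtx1 at 3.88, Maml2 at 0.852, Nrarp at 0.633, Notch1 at 0.482, Numb at 0.0314 and Notch3 at 0.00477 CPM per kb. The first place of Hes1 was set by WT replicate 2, since its median was 4.51 CPM per kb against 11.1 for Rbpj, and Hes1 exceeded Rbpj in only 2 of 8 libraries. Rbpj was the highest member in 5 libraries, Maml1 in WT replicate 1, Hes1 in WT replicate 2 and Dtx1 in KO replicate 6. The ranges of every neighbouring pair in this order overlapped over the 8 libraries. Within libraries Notch2 exceeded Dtx1 in 7 of 8 and Notch1 exceeded Numb in 8 of 8, whereas Dtx1 exceeded Maml2 in 4 of 8.

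**Figure D3:**
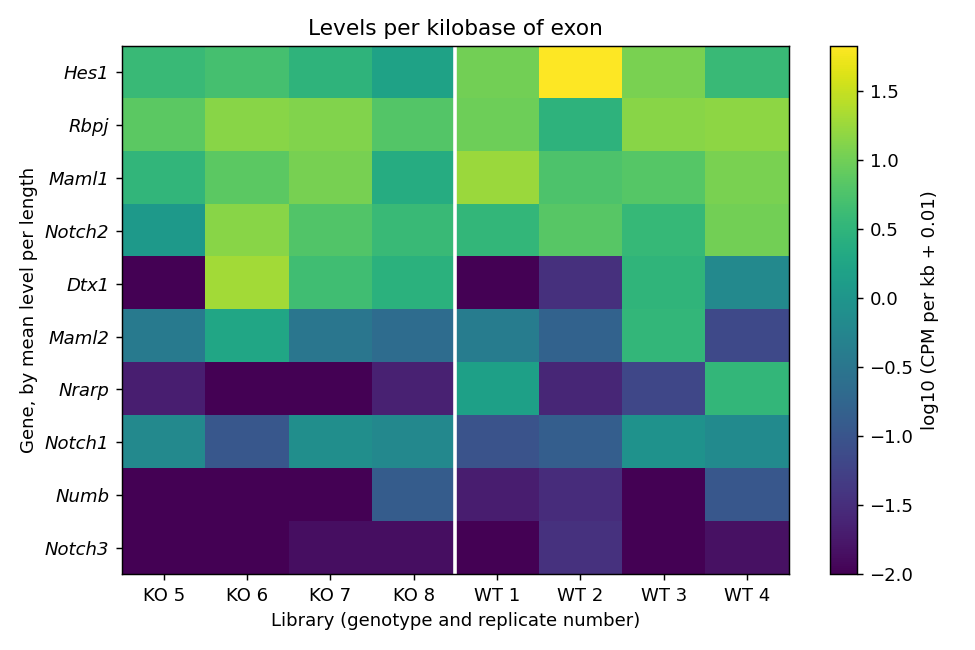
Level per kilobase of exon (log10 of CPM per kb plus 0.01, colour) of the 10 genes, ordered by their mean, in 4 KO libraries (left of the white line) and 4 WT libraries (right of it). The lowest values of Rbpj, Maml1, Hes1 and Notch2 are 2.99, 2.37, 1.58 and 1.18 CPM per kb. Dtx1 and Nrarp fall to 0 in some libraries of this figure, and Maml2 to 0.0596 CPM per kb.

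The spread between libraries, set beside that of tested genes of like level, differed among the 7 tested members. Within groups the coefficient of variation of Rbpj was 37.7% in KO and 52.7% in WT, against medians of 33.0% in KO and 29.6% in WT over the 1828 tested genes whose mean reached 100 CPM. Values for Dtx1 were 132% in KO and 158% in WT, where the 4921 tested genes with a mean of 10 to 100 CPM had medians of 70.3% in KO and 74.1% in WT. At the same level Hes1 had 42.8% in KO and 127% in WT, Notch2 86.9% in KO and 54.3% in WT, and Maml1 66.5% in KO and 53.5% in WT, so that Maml1 lay below both medians. Maml2, at 114% in KO and 161% in WT, was compared with medians of 107% in KO and 118% in WT over the 2129 tested genes under 10 CPM, and Notch1 lay below both of these at 55.8% in KO and 89.6% in WT. Rbpj, Dtx1 and Maml2 thus exceeded the medians in both groups, and Hes1 and Notch2 in 1 group each.

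Over the whole comparison, 7 of the 10 members passed the expression filter, and Notch3, Nrarp and Numb did not. In edgeR 0 of the 7 had an adjusted p under 0.05, as did 0% of the 8878 tested genes, and only Hes1 had an unadjusted p under 0.05, where 4.1% of all tested genes did, 2.1% with higher and 2% with lower values in KO. DESeq2 counted 2 members with an unadjusted p under 0.05, Hes1 and Nrarp, beside 1247 of the 16714 genes to which it gave a p. Fitted values were higher in KO for 3 of the 7 and lower for 4, with a median log2 fold of -0.04, against 50.9% higher, 49.1% lower and a median of 0.02 over all tested genes. The KO and WT libraries overlapped in each of these 7 genes, while 4.36% of all tested genes had none, 2.26% with KO above and 2.1% with KO below WT. DESeq2 gave a p to 9 members and called 1 of them, Nrarp, lower in KO, beside 0.802% of 16714 genes called lower, 1.44% called higher and 2.24% called in either direction. It gave no p to Maml2, and the adjusted p of Hes1 was 0.0859.

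**Figure D4:**
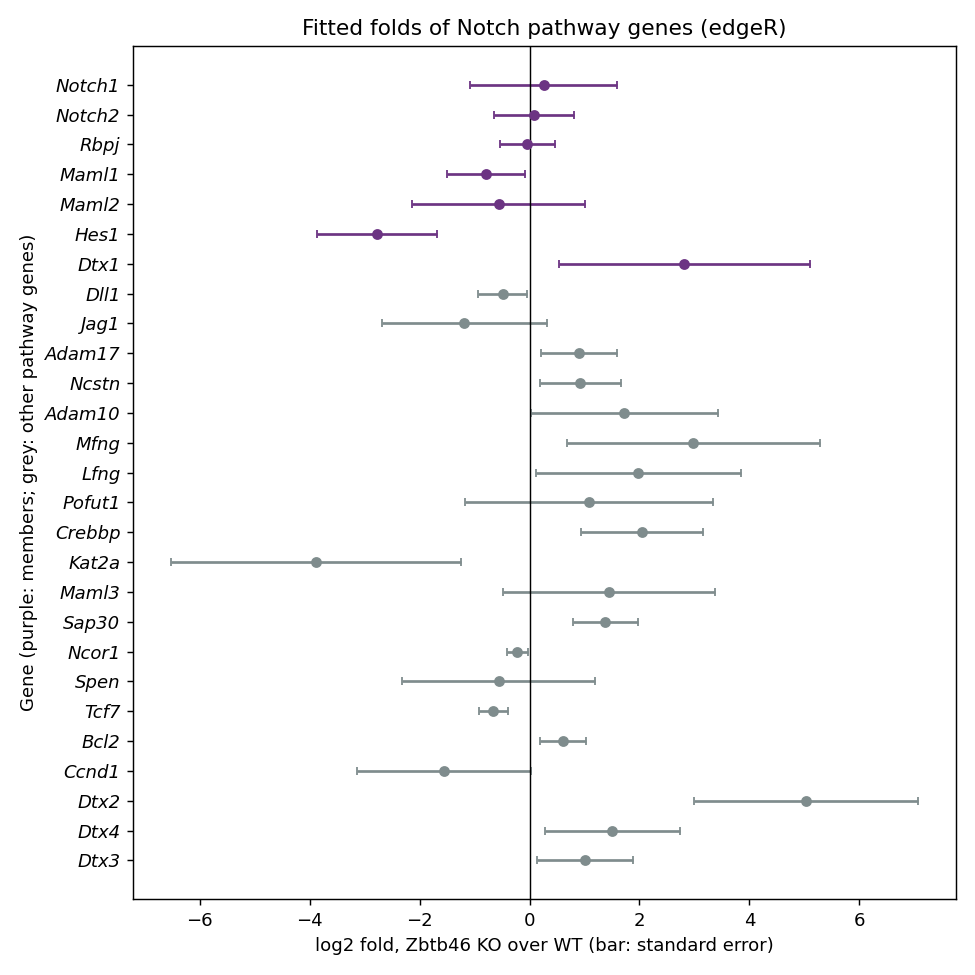
Fitted log2 fold of KO over WT (points) with its standard error (bars) in edgeR for the 7 tested members (purple) and 20 other pathway genes named by a fixed rule (grey). The bars of Notch1, Notch2, Rbpj and Maml2 cross 0, Hes1 lies at -2.77 and Dtx1 at 2.81, and none of the 27 genes passed the test over all genes.

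The rest of the pathway was followed through 8 further lists with 67 genes, of which 46 were tested. None had an adjusted p under 0.05 in edgeR, 29 had higher and 17 lower fitted values in KO, and 3 had an unadjusted p under 0.05. Their median log2 fold was 0.15. In 3 of the 46, Sap30, Tcf7 and Ccnd1, the groups did not overlap, a share near the 4.36% of all tested genes. DESeq2 gave a p to 60 of the 67 and called Sap30 and Hes6, both higher in KO, beside 1.44% of all its genes called higher and 2.24% called in either direction.

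Of 7 ligand genes only Dll1 and Jag1 were tested, and both had lower fitted values. Dll1, a Delta-like ligand, was detected in every library, with 101 ± 20.8 CPM in KO and 141 ± 91.1 CPM in WT (SD, n = 4 each), and WT replicate 4 was highest at 275 CPM. Without that library its log2 fold of -0.49 turned to 0.0556. Jag1 had 9.64 ± 10.1 CPM in KO and 21.9 ± 21.4 CPM in WT (SD, n = 4 each), highest in WT replicate 2 at 51.4 CPM. Jag2 was not tested, and nearly all of its reads were in KO replicate 6 (409 counts) and WT replicate 4 (432 counts). Dll3, Dll4, Dlk1 and Dlk2 had no more than 3 counts in any library. Notch4, the only further receptor gene, had 0 counts in KO and 6 in WT libraries.

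Of 10 genes for receptor cleavage 8 were tested, with 6 higher and 2 lower fitted values and none past the threshold. The sheddase genes Adam17 and Adam10 had 52.8 ± 24.1 and 26.8 ± 22.4 CPM in KO, against 28.3 ± 13.1 and 8.11 ± 9.88 CPM in WT (SD, n = 4 each). Ncstn, a subunit of the γ-secretase that makes the final cut, had 52.2 ± 23.7 CPM in KO and 27.6 ± 19.35 CPM in WT (SD, n = 4 each), with overlapping ranges in all 3 genes. Of 5 genes for sugar modification of the receptors 4 were tested, all with higher fitted values at low levels. The fringe gene Mfng had 6.74, 9.65, 8.04 and 0 CPM in KO replicates 5 to 8, against 0.274, 2.81, 0 and 0 CPM in WT replicates 1 to 4. Lfng and Pofut1 had means of 1.14 and 4.22 CPM in KO, against 0.288 and 2.00 CPM in WT.

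Among 6 other coactivator genes, all tested, 4 had higher and 2 lower fitted values. The acetyltransferase gene Crebbp had 14.35, 153, 56.6 and 36.8 CPM in KO replicates 5 to 8, against 1.76, 2.94, 25.9 and 32.5 CPM in WT replicates 1 to 4, with an unadjusted p of 0.094 in edgeR. Kat2a had 35.9 and 44.9 CPM in WT replicates 1 and 2 and at most 5.08 CPM in each of the remaining 6 libraries. Maml3, the third Mastermind-like gene, had 18.5 ± 25.4 CPM in KO and 6.80 ± 5.32 CPM in WT (SD, n = 4 each).

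Of 10 corepressor genes 9 were tested, with 4 higher and 5 lower fitted values. Sap30, a subunit of the Sin3 histone deacetylase complex, had 52.9, 50.5, 78.0 and 56.8 CPM in KO replicates 5 to 8, against 26.9, 15.1, 26.7 and 22.7 CPM in WT replicates 1 to 4. Every KO library lay above every WT library, and the fitted fold was 2.6 (log2 fold 1.38, standard error 0.584). Its unadjusted p was 0.0394 and its adjusted p 0.9999 in edgeR, and DESeq2 gave an adjusted p of 0.00147. Leaving out each library in turn kept its log2 fold between 1.22 and 1.48, with an unadjusted p between 0.0384 and 0.116. Ncor1 and Spen, which encode RBPJ-linked corepressors, had 483 ± 46.4 and 7.51 ± 13.1 CPM in KO, against 563 ± 86.2 and 11.1 ± 8.87 CPM in WT (SD, n = 4 each).

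Of 13 other target genes 5 were tested, with 2 higher and 3 lower fitted values. Tcf7, which encodes the transcription factor TCF-1, had 138, 149, 102 and 145 CPM in KO replicates 5 to 8, against 201, 253, 211 and 177.5 CPM in WT replicates 1 to 4. The groups did not overlap, and the log2 fold of -0.66 (standard error 0.262) had an unadjusted p of 0.0306 and an adjusted p of 0.9999 in edgeR. Ccnd1, the cyclin D1 gene, had 0.342, 6.49, 0.0313 and 6.38 CPM in KO replicates 5 to 8, against 8.22, 9.31, 6.63 and 14.9 CPM in WT replicates 1 to 4. The closest libraries of Ccnd1 differed by little, and its unadjusted p was 0.349. Bcl2, a survival gene, had 453 ± 331 CPM in KO and 298 ± 58.0 CPM in WT (SD, n = 4 each), with 947 CPM in KO replicate 6. Among the 8 targets that were not tested, Myc had 630 counts in KO replicate 6 and 85 in WT replicate 4, and no more than 5 in each of the others. Hey1 had 438 counts in KO replicate 7 and 107 in WT replicate 4, and at most 2 elsewhere. Hes5 had 8 counts in KO replicate 7 and at most 1 in any other library. The targets Hes7, Hey2, Heyl and Ptcra had no more than 3 counts in any library.

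Of 15 genes for receptor turnover and trafficking 12 were tested, with 9 higher and 3 lower fitted values. Dtx2, a relative of Dtx1, was the only gene of the list with an unadjusted p under 0.05. Dtx2 had 0.0571, 10.1, 4.599 and 5.35 CPM in KO replicates 5 to 8, against 0, 0.455, 0.144 and 0 CPM in WT replicates 1 to 4. KO replicate 5 lay within the WT range, and the unadjusted p of Dtx2 was 0.033 and its adjusted p 0.9999 in edgeR. Dtx3 and Dtx4 had 32.9 ± 14.3 and 42.8 ± 32.0 CPM in KO, against 16.3 ± 8.41 and 15.1 ± 15.4 CPM in WT (SD, n = 4 each), with overlapping ranges and unadjusted p of 0.272 for Dtx3 and 0.249 for Dtx4 in edgeR. A further relative, Dtx3l, had means of 11.8 CPM in KO and 6.22 CPM in WT and an unadjusted p of 0.553 in edgeR.

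**Figure D5:**
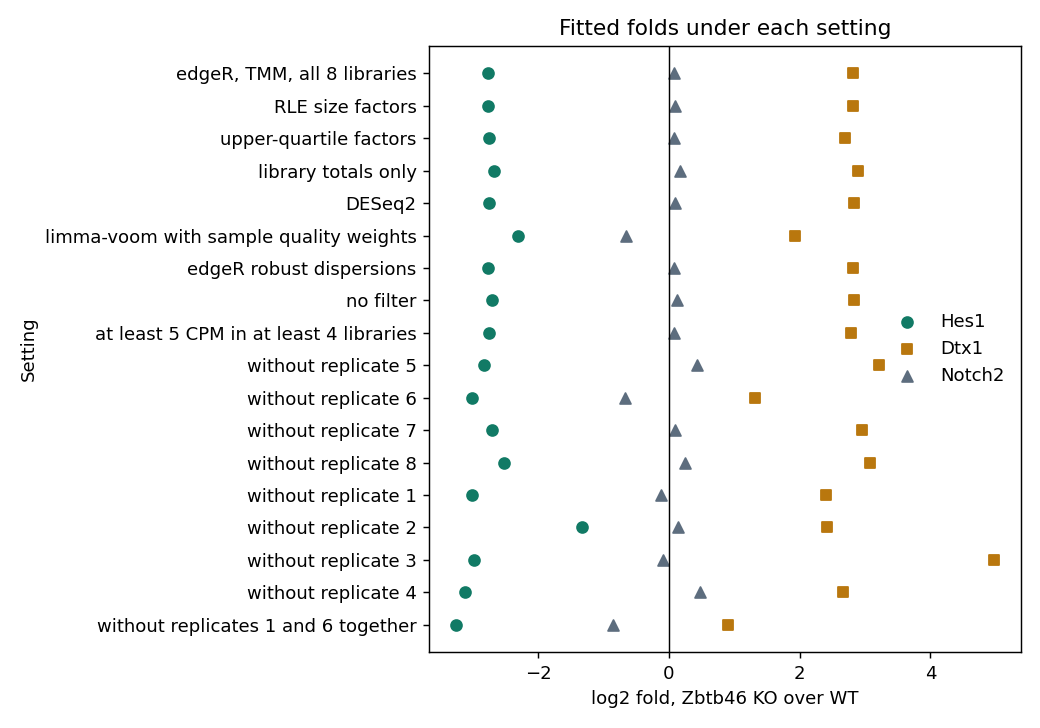
Fitted log2 fold of KO over WT for Hes1, Notch2 and Dtx1 (x axis) under each setting (y axis): scaling, test, filter and libraries left out. Hes1 lies between -3.26 and -1.33 and Dtx1 between 0.90 and 4.97, while Notch2 lies on both sides of 0.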

How the data were processed

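Libraries of sorted CCR6+ ILC3s were made with a low-input SMARTer kit, per the labels' protocols. STAR 2.3.0, CASAVA 1.8.2 and the build mm10 are named, with no role, by the submitters' processing notes. No source used here names the counting tool, annotation, strand setting or handling of reads with several matches. What was deposited holds raw read counts per Entrez gene ID. Symbols came from the RefSeq table of GRCm38.p6 (25275 of 27179 rows, and 1904 rows without one held 0.303% of counts), and exon lengths from GENCODE M21 on the same assembly.

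The test was edgeR 4.0.16 (quasi-likelihood F test, R 4.3.3) on all 8 libraries, with TMM factors and filterByExpr, and calls were made at p under 0.05 after Benjamini-Hochberg adjustment over 8878 genes. The standard error of a log2 fold is the fold divided by the root of its F value. Single genes were also compared by exact two-sided permutation of log2(CPM + 1). The edgeR step was tested on simulated counts with known folds. That check was on the size of the fitted fold and the number of false calls. It set no limit on how many changed genes had to be called. Nothing says whether the mice shared a litter or a preparation day. The p-values set the difference between genotypes against the spread between these libraries, taken as independent. A litter or day that differed between the groups could not be told apart from genotype. Alternatives were other scalings, DESeq2 1.42.0, limma-voom (limma 3.58.1), robust dispersions, no filter or at least 5 CPM in at least 4 libraries, each library left out, and, added after seeing the data, leaving out replicates 1 and 6 together.

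The members, the 8 other pathway lists and the marker lists were chosen with earlier results of these data known. All members were named, and of each other list up to 4 genes past the threshold or otherwise the 3 tested genes with the smallest p; genes named beside these were chosen after their values were seen. No library of the table was left out. The driver of the Cre is not reported here.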

Additional observations from a re-analysis of the deposited data

Results flagged for a closer look

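Each group of 4 was searched for a library standing apart, by its gap to the nearest of the others, in the members, the 20 other named pathway genes and Zbtb46. Groups with low values in every library were not searched. Such a library was found in 9 of 56 groups, and each was the highest of its group. For normally distributed values about 2.8 would be flagged. CPM values were not transformed, and skewed values give more high flags, so the number flagged cannot be read against 2.8. Among the members, Maml2 stood out in KO replicate 6 (12.3 CPM, next 2.43) and in WT replicate 3 (22.8 CPM, next 2.62), and Hes1 in WT replicate 2 (137 CPM, next 23.1). KO replicate 6 also stood out in Spen at 27.0 CPM (next 2.63) and in Bcl2 at 947 CPM (next 330). WT replicate 2 stood out in Mfng at 2.81 CPM (next 0.274) and in Lfng at 1.12 CPM (next 0.036). Pofut1 was highest in KO replicate 8 at 15.0 CPM (next 1.91), and Kat2a in KO replicate 5 at 5.08 CPM among KO libraries (next 0.375).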

How the results depend on the processing

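No paired analysis was possible because replicate numbers run from 1 to 8 and no number is shared between groups. Hes1 and Maml1 stayed lower and Dtx1 higher in KO under all 17 alternatives that were run, and the other 4 tested members changed sign in at least 1. DESeq2 gave 2 members an unadjusted p under 0.05 and called 1. Among all 16714 genes with a p in DESeq2, 1247 had such a p, 240 were called higher and 134 lower. Without a filter edgeR gave such a p to 2 members and to 2081 of 19290 genes. It then called 1 gene higher and 1 lower. Limma-voom gave such a p to 0 members and to 775 of 8878 genes. Leaving out each library in edgeR gave 0 to 1 member such a p, beside 367 to 520 of 9298 to 9550 tested genes. Between 0 and 2 genes were then called lower. In the same settings 0 members had an exact permutation p under 0.05, a level that 3 against 4 libraries cannot reach. Leaving out replicates 1 and 6 together left 3 against 3 libraries, which cannot reach such a permutation p either, and gave 0 members. The cause of these moves was not tested beyond the number of libraries. DESeq2 gave Sap30 an adjusted p of 0.00147.

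Sign changes of log2 folds were as follows. With limma-voom Notch2 was -0.66, Maml2 0.12, Pofut1 -0.11 and Maml3 -0.0760, and with library totals Rbpj was 0.0582. Without replicates 1 and 6 together Notch2 was -0.85, Maml3 -0.54 and Bcl2 -0.0374. With each library left out, Notch1 ran from -0.10 to 0.86, Notch2 from -0.67 to 0.48, Rbpj from -0.35 to 0.19, Maml2 from -1.78 to 1.76, Dll1 from -0.68 to 0.0556, Pofut1 from -1.65 to 1.51, Maml3 from -0.14 to 1.92 and Bcl2 from -0.0480 to 0.80. Differences of mean log2(CPM + 1) ran from -0.0239 to 0.93 for Notch1, -0.78 to 0.38 for Notch2, -0.0867 to 0.0037 for Notch3, -0.40 to 0.37 for Rbpj, -0.42 to 0.99 for Maml2 and -0.16 to 0.0821 for Numb, and without replicates 1 and 6 together they were -0.0326 for Rbpj and -0.46 for Maml2. Notch3, Nrarp and Numb lay at no more than 3 counts in 5 or more of the 8 libraries. Notch3 had at most 5 counts and Numb at most 15 in any library, and the reason for these low counts was not tested. Nrarp had 99 and 228 counts in WT replicates 1 and 4, and is limited by the few libraries that held its reads.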

Other observations

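Hes6, a relative of Hes1 known to oppose HES1 in mouse cells, was singled out after its values were seen. It had 211, 0, 85 and 80 counts in KO replicates 5 to 8, against 0 counts in each of the 4 WT libraries. A count of 0 allows up to 0.118 CPM on library totals, which covers counting error only and not the spread between libraries. In CPM the KO libraries were at 6.02, 0, 2.66 and 2.5, so KO replicate 6 had none and overlapped WT. Hes6 did not pass edgeR's filter, and DESeq2 gave it an adjusted p of 0.0249.

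Ncr1 is the gene of the receptor NKp46 found on Notch-dependent ILC3s. It was singled out after its values were seen, as 1 of 9 markers of NCR+ ILC3s, ILC1s and NK cells. Ncr1 had 447, 148, 151 and 270 CPM in KO replicates 5 to 8, against 0.0391, 41.1, 67.4 and 198 CPM in WT replicates 1 to 4. The KO range began below the highest WT value, and edgeR's unadjusted p for Ncr1 was 0.196. Of the 9 markers 3 were tested, with 2 higher and 1 lower fitted values in KO. Klrb1c had 13.7 to 46.2 CPM in KO and 24.4 to 48.2 CPM in WT libraries.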
